A study of Mus musculus with 12 samples.

Results

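The antiviral interferon-stimulated genes described here are 36 genes of the type I interferon response, chosen by name from the families that act against viruses. All 36 were found among the 56980 gene IDs of the count table, and all 36 passed the filter on low counts that left 15110 genes for testing. The cells were macrophages grown out of mouse bone marrow over 7 days in L929-conditioned medium. The 12 libraries formed 4 groups of 3. Macrophages of the genotype RankCre-Regnaes3cKO (cKO) were stimulated with lipopolysaccharide (LPS) at 100 ng/ml plus interferon-gamma at 10 ng/ml (cKO M1, replicates 7 to 9), and wildtype macrophages were given the same (WT M1, replicates 10 to 12). Unstimulated macrophages of both genotypes were cKO M0 (replicates 1 to 3) and WT M0 (replicates 4 to 6). The series was made to ask what Regnase-3 does when Rank-positive macrophages polarize. Regnase-3 is the RNA-binding protein encoded by Zc3h12c, and the Cre is named for Rank, the receptor encoded by Tnfrsf11a. The labels give no Cre-only control, and the sources used here do not give strain, sex, age or the time of stimulation. Whether replicates were separate animals is not said either, and a p-value then reflects the spread among these libraries, which may be technical.

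Type I interferons bind the receptor IFNAR, whose kinases JAK1 and TYK2 activate the transcription factor complex ISGF3, which contains STAT2 and IRF9 and binds the interferon-stimulated response element (ISRE) in the promoters of antiviral genes. Interferon-gamma acts through another receptor and the GAS element, and LPS makes macrophages release interferon-beta through TLR4. Unstimulated macrophages keep a low level of many of these genes through tonic interferon signalling.

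The ISRE is the sequence these genes are known for, so it was looked for in the 250 bases before each RefSeq start site (GRCm38.p6, not the build of the counts). Of the 36 genes, 27 matched a RefSeq promoter by symbol, with 31 promoters in all; Usp18, Mx1, Mx2, Oas2, Dhx58, Ifi204, Parp9, Parp14 and Rtp4 had no entry. The ISRE core, GAAA followed by any 2 bases and GAAA on either strand, was in 12 of the 31, in 12 genes (those shown here and Oas1g, Oas3, Slfn5 and Trim30a), against 2.98% of all 32851 mouse promoters. The longer ISRE, the same letters followed by CT, was in 7 of the 31, against 0.222% of all promoters. A pair of other motifs was also searched, in windows of the same length on both strands. The GAS core TTCNNNGAA was in 5 of the 31, against 7.02% of all, and the NF-kB motif was in 6 of the 31, against 7.25% of all. The GAS core and the ISRE can overlap. Eif2ak2, described further on, had a GAS core and no ISRE core in its window. A match describes the letters and not a site shown to be bound, and the lack of one says only that these letters are not in the window. The sequences below are parts of the promoters of genes whose values are given further on, with the bases covered by ISRE matches in capitals; each is the strand of its gene, read 5′ to 3′.
Ifit1, chr19:34640763-34640833, plus strand: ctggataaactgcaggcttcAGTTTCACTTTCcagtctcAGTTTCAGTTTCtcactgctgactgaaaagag
Ifit3, chr19:34583351-34583402, plus strand: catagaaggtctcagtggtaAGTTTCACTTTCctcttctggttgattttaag
Ifit3b, chr19:34607747-34607798, plus strand: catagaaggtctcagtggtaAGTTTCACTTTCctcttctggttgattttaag
Isg15, chr4:156200855-156200916, minus strand: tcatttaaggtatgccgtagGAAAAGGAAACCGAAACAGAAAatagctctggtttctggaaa
Oas1a, chr5:120907526-120907565, minus strand: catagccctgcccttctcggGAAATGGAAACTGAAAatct
Rsad2, chr12:26456543-26456592, minus strand: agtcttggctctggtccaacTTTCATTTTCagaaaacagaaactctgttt
Ifi205, chr1:174031860-174031909, minus strand: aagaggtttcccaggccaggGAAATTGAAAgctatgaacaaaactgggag
Bst2, chr8:71537567-71537622, minus strand: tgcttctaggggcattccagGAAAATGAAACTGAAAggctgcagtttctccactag
Ifit1 carries the longer motif 2 times within this window, and in Isg15 3 core matches overlap in 1 run. The windows of Ifit3 and Ifit3b are identical at 52 of 52 bases.

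Library totals lay between 41721452 and 42197986 counts, so depth was nearly equal. Zc3h12c, the targeted gene, was lower in cKO than in WT in M1 (log2 fold change -0.68, SE 0.12, adjusted p = 0.00101 by edgeR's quasi-likelihood test with Benjamini-Hochberg adjustment). In M0 it had a value of -0.07 (SE 0.12, adjusted p = 0.81); the deleted exons were not named in the labels. Macrophage markers summed to between 14204 and 18844 CPM, that is, counts scaled to a common library size by TMM, in every library. The sum does not show changes of single markers. Of the 8, 0 were higher and 1 lower in cKO than in WT in M0 at an adjusted p under 0.05 (edgeR), against 0.662% and 0.953% of all tested genes. For M1 these counts were 2 and 1, against 8.98% and 9.67%. Cd3e and Cd3g, which mark T cells, were at 0 in all libraries. Other genes of their list were detected. The 6 markers of T and NK cells summed to at most 0.312 CPM in cKO M1, 0.12 CPM in WT M1, 0.271 CPM in cKO M0 and 0.4 CPM in WT M0. Siglech, a marker of plasmacytoid dendritic cells, the body's strongest source of type I interferon, did not exceed 0.18 CPM and was at 0 in M1. Siglech does not stand for its list: the 5 listed markers other than Bst2 summed to more in M1 than in M0, as given further on. In 1 unstimulated library, cKO M0 replicate 1, every one of the 36 genes had its lowest level of the group, so results that rest on it are also given without it.

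Stimulation raised nearly the whole set in both genotypes. In cKO, 35 of 36 genes were higher in M1 than in M0 and 1, Ifit3b, was lower. In WT, 34 were higher, and Eif2ak2 and Ifit3b did not pass the test. Of all tested genes, 34.2% were higher in cKO and 34.2% in WT in the same comparisons, and 70.2% and 71.4% passed in either direction. The median log2 fold change of the 36 genes was 1.76 in cKO and 1.79 in WT, beside -0.04 and -0.07 over all tested genes. Levels at least 2-fold higher in M1 were reached by 30 genes in cKO and 31 in WT, 8-fold by 9 and 10, and 16-fold by 2 and 5. Levels in the M1 and M0 libraries did not overlap for 35 genes in cKO and 34 in WT, all of them higher in M1, while 72.7% and 75.6% of all genes showed no overlap in either direction. Because a bulk library holds many cells, more cells with an RNA and more RNA per cell cannot be told apart. The TMM factors averaged 0.840 in cKO M1, 0.808 in WT M1, 1.22 in cKO M0 and 1.21 in WT M0, so the size of every rise depends on the scaling. With library totals alone the median of all genes moved to -0.58 in cKO and -0.65 in WT, and that of the 36 genes to 1.23 and 1.21, with 32 genes higher in cKO and 32 in WT.

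**Figure D1:**
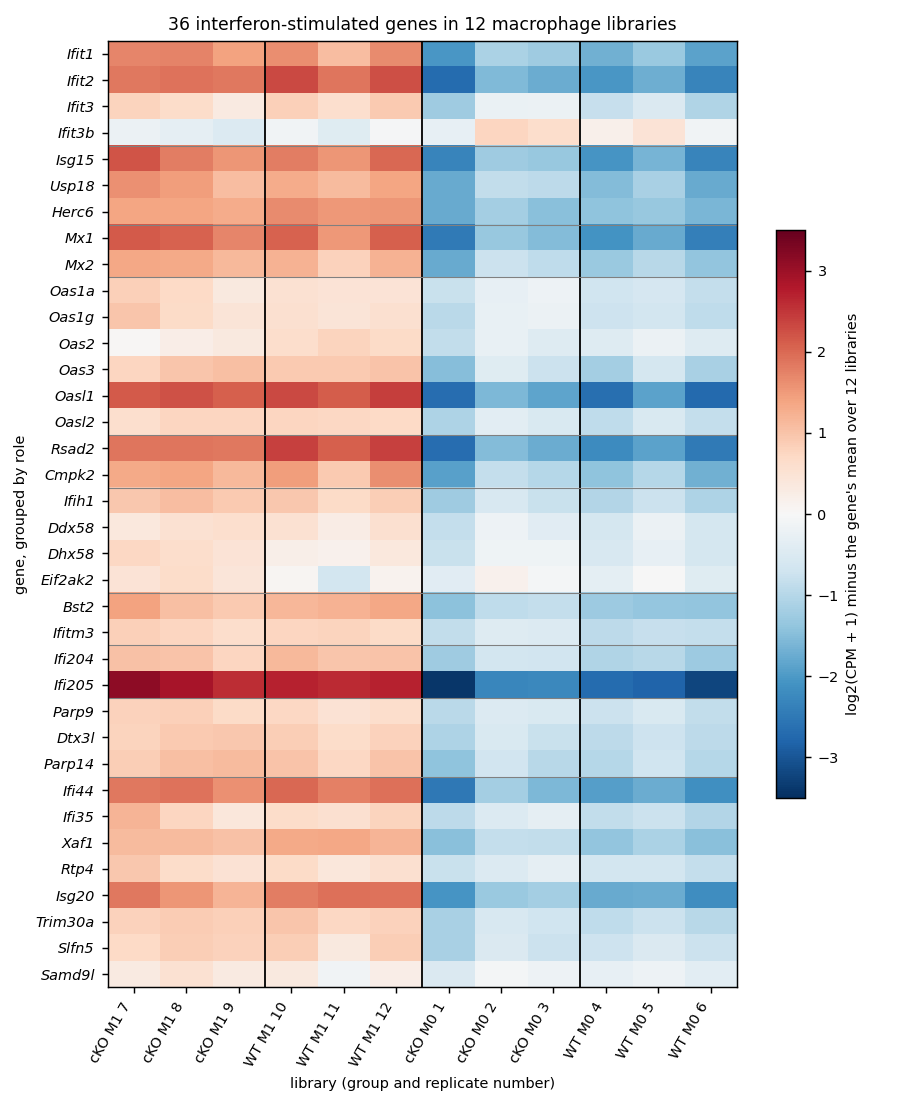
Level of each of the 36 genes (rows, grouped by role) in each of the 12 libraries (columns), as log2(CPM + 1) minus the gene's mean over the 12 libraries; red is above and blue below that mean. Ifit3b is the row that is bluer in M1 than in most M0 libraries, and cKO M0 replicate 1 is the lowest of its group in 36 of 36 rows.

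The IFIT proteins bind viral RNA and block its translation. Ifit2 had 2666, 2769 and 2673 CPM in cKO M1, 3669, 2699.7 and 3551 CPM in WT M1, 115, 253 and 223 CPM in cKO M0 and 182, 227 and 149 CPM in WT M0. All M1 libraries were above all M0 libraries, and the genotypes overlapped in both states. It rose by log2 fold changes of 3.78 in cKO and 4.15 in WT, and Ifit1, which recognises foreign RNA caps, by 3.05 and 3.09. Ifit3 had 393, 357 and 284 CPM in cKO M1, 408, 348 and 431 CPM in WT M1, 96.0, 193 and 198 CPM in cKO M0 and 131, 162 and 109.8 CPM in WT M0. Ifit3b had 16.2, 14.9 and 13.2 CPM in cKO M1, 17.1, 13.7 and 18.4 CPM in WT M1, 15.2, 32.6 and 29.3 CPM in cKO M0 and 21.3, 26.6 and 17.1 CPM in WT M0. Ifit3 thus rose in M1 in both genotypes (log2 fold changes 1.08 in cKO and 1.56 in WT), while Ifit3b fell in cKO by 0.80 (SE 0.23, adjusted p = 0.00542, edgeR) and had a value of -0.40 in WT (SE 0.23, adjusted p = 0.123). In WT, Ifit3b passed as lower without cKO M0 replicate 1, with library totals alone, without the filter on low counts or when only those 2 groups were fitted. The level in cKO M0 replicate 1, 15.2 CPM, lay within the cKO M1 range, and the cKO call held with each library left out. The ISRE windows of the pair, printed above, are the same. The pair share sequence: 31.7% of the 100-base windows of the Ifit3 transcripts also occur in another gene, as do 27.4% of those of Ifit3b (GENCODE M21). The treatment of reads with several matches is unstated, so the split between the 2 genes is uncertain.

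The ISG15 system attaches the ubiquitin-like protein ISG15 to other proteins. Isg15 had 974, 727 and 613 CPM in cKO M1, 728, 622 and 860.1 CPM in WT M1, 42.01, 89.2 and 83.6 CPM in cKO M0 and 49.3, 67.0 and 41.7 CPM in WT M0. Usp18, which removes ISG15 and damps signalling from IFNAR, had 411, 375 and 287 CPM in cKO M1, 332, 292 and 354 CPM in WT M1, 38.5, 73.3 and 70.3 CPM in cKO M0 and 46.5, 60.4 and 39.0 CPM in WT M0. Herc6, the ligase that attaches ISG15 in mice, had 264, 266 and 250.4 CPM in cKO M1, 323, 290.4 and 297 CPM in WT M1, 29.1, 43.7 and 36.5 CPM in cKO M0 and 37.9, 39.7 and 32.7 CPM in WT M0. Modifier, protease and ligase all rose, with log2 fold changes of 3.43 in cKO and 3.81 in WT for Isg15, 2.56 and 2.75 for Usp18 and 2.84 and 3.04 for Herc6. Herc6 was the steadiest of the 3 in M1, and its cKO M1 libraries all lay below the WT M1 libraries without passing the test (log2 fold change -0.22, SE 0.12, adjusted p = 0.206, edgeR). Its exons overlap those of Gm45193 on the same strand over 13.7% of their bases.

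The MX proteins are GTPases that trap viral nucleocapsids. Mx1 had 702, 661 and 519 CPM in cKO M1, 665, 457 and 680.1 CPM in WT M1, 27.8, 63.2 and 54.4 CPM in cKO M0 and 36.4, 45.6 and 29.5 CPM in WT M0. Mx2 was lower throughout, with 68.1, 66.3 and 58.3 CPM in cKO M1, 61.0, 46.2 and 61.4 CPM in WT M1, 6.88, 15.1 and 13.4 CPM in cKO M0 and 9.92, 12.8 and 9.23 CPM in WT M0. Mx1 rose by log2 fold changes of 3.69 in cKO and 4.01 in WT and Mx2 by 2.45 and 2.40. Both had their lowest M0 level in cKO replicate 1.

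The OAS enzymes sense double-stranded RNA and make oligoadenylates, which activate RNase L. Oas1a had 326, 298 and 232 CPM in cKO M1, 265, 255 and 257 CPM in WT M1, 106, 150.2 and 160.4 CPM in cKO M0 and 112, 122 and 103 CPM in WT M0. Oas1g had 99.2, 80.3 and 68.9 CPM in cKO M1, 75.2, 68.8 and 75.6 CPM in WT M1, 26.0, 42.3 and 43.8 CPM in cKO M0 and 30.3, 32.0 and 26.9 CPM in WT M0. These paralogs share 40.9% of the windows of Oas1a and 31.3% of those of Oas1g, so how reads were split between them is uncertain. Oasl1, which in mice restrains translation of the factor IRF7, had 1129, 1197 and 1100.0 CPM in cKO M1, 1262, 1122 and 1375 CPM in WT M1, 39.2, 85.5 and 69.7 CPM in cKO M0 and 40.3, 68.8 and 38.3 CPM in WT M0. It rose most of the family, by log2 fold changes of 4.14 in cKO and 4.67 in WT, whereas Oas1a rose by 1.04 and 1.21 and Oas1g by 1.15 and 1.30. Oas3 rose by 1.76 and 1.90, Oasl2 by 1.34 and 1.47 and Oas2 by 0.73 and 1.07. The rise of Oas2 in cKO did not pass with library totals alone.

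Rsad2 encodes viperin, which makes a chain-terminating nucleotide from CTP, and Cmpk2, its neighbour, encodes a mitochondrial nucleotide kinase. Rsad2 had 1798, 1798 and 1763 CPM in cKO M1, 2585, 2102 and 2580.4 CPM in WT M1, 75.5, 169 and 146 CPM in cKO M0 and 105, 133 and 86.9 CPM in WT M0. Cmpk2 had 780.2, 812 and 681 CPM in cKO M1, 867, 591 and 960.5 CPM in WT M1, 82.3, 174 and 155 CPM in cKO M0 and 116, 155 and 95.6 CPM in WT M0. Rsad2 rose by log2 fold changes of 3.78 in cKO and 4.48 in WT, and Cmpk2 by 2.47 and 2.72. The 3 cKO M1 libraries lay below the 3 WT M1 libraries in Rsad2 and overlapped with them in Cmpk2.

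The RNA sensors RIG-I (Ddx58), MDA5 (Ifih1) and LGP2 (Dhx58) detect viral RNA in the cytosol, and PKR (Eif2ak2) is a kinase that stops translation when it binds double-stranded RNA. Their median rise was the smallest of the 10 roles, 0.94 in cKO and 0.82 in WT. Ddx58 had 309, 343 and 359.7 CPM in cKO M1, 346, 284 and 355 CPM in WT M1, 132, 211 and 182 CPM in cKO M0 and 155, 208 and 157 CPM in WT M0. Dhx58 had 261, 241 and 219 CPM in cKO M1, 184, 175 and 204 CPM in WT M1, 92.4, 142 and 143 CPM in cKO M0 and 107, 130.3 and 104 CPM in WT M0. Ddx58 rose by log2 fold changes of 0.95 in cKO and 0.92 in WT, Dhx58 by 0.94 and 0.72 and Ifih1 by 1.84 and 1.78. The rise of Dhx58 in WT did not pass with library totals alone (adjusted p = 0.356). Eif2ak2 had 164, 183 and 159 CPM in cKO M1, 124, 74.6 and 128 CPM in WT M1, 89.8, 129.5 and 112 CPM in cKO M0 and 92.7, 118 and 87.5 CPM in WT M0. It rose in cKO by 0.61 (SE 0.18, adjusted p = 0.00612, edgeR), and in WT its M1 and M0 libraries overlapped, with a value of 0.14 (SE 0.18, adjusted p = 0.506). With library totals alone it had 0.08 in cKO (adjusted p = 0.703) and fell in WT by 0.44 (adjusted p = 0.0338), so its direction in WT depends on the scaling.

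Tetherin (Bst2) holds budding virions at the cell surface, and IFITM3 blocks fusion of enveloped viruses with endosomes. Bst2 had 908, 714 and 651 CPM in cKO M1, 768, 804 and 869 CPM in WT M1, 126, 185 and 191 CPM in cKO M0 and 142, 134 and 132 CPM in WT M0. Ifitm3 had 1228, 1159 and 1057 CPM in cKO M1, 1158, 1185 and 1107 CPM in WT M1, 379, 504 and 501 CPM in cKO M0 and 367, 397 and 386 CPM in WT M0. The log2 fold changes were 2.18 in cKO and 2.58 in WT for Bst2 and 1.32 and 1.59 for Ifitm3, and both genes varied little between WT M0 libraries.

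Ifi204 and Ifi205 belong to the p200 family of nuclear proteins, of which some sense DNA. Ifi204 had 801, 787 and 671 CPM in cKO M1, 861, 776 and 787 CPM in WT M1, 165, 250.3 and 248 CPM in cKO M0 and 190.2, 201 and 164 CPM in WT M0. Ifi205 had 274, 232 and 188 CPM in cKO M1, 203, 189.7 and 203 CPM in WT M1, 1.98, 5.44 and 5.48 CPM in cKO M0 and 3.79, 3.496 and 2.38 CPM in WT M0. Ifi205 went up more than any other of the 36 genes, with log2 fold changes of 5.75 in cKO (SE 0.29) and 5.94 in WT (SE 0.29), from the lowest M0 level of the set. Ifi204 rose by 1.77 in cKO and 2.13 in WT. Of their transcript windows, 10.7% for Ifi204 and 15.04% for Ifi205 recur in other genes of the family.

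PARP9 and DTX3L form a complex that modifies histones and viral proteins, and PARP14 is a related ADP-ribosyltransferase. Parp9 had 327, 334 and 297 CPM in cKO M1, 313, 269 and 288 CPM in WT M1, 96.7, 135 and 128 CPM in cKO M0 and 110.1, 128 and 103 CPM in WT M0. Dtx3l had 364, 399 and 409 CPM in cKO M1, 389, 329.6 and 370.5 CPM in WT M1, 99.1, 146 and 124 CPM in cKO M0 and 112, 129 and 111 CPM in WT M0. Parp14 had 1397, 1601 and 1676 CPM in cKO M1, 1563, 1276 and 1546 CPM in WT M1, 291, 491 and 392 CPM in cKO M0 and 385, 480.1 and 391 CPM in WT M0. The 3 genes rose to a like extent, by log2 fold changes of 1.41 in cKO and 1.35 in WT for Parp9, 1.67 and 1.63 for Dtx3l and 1.99 and 1.80 for Parp14. Parp9 and Dtx3l lie head to head and their exons overlap on opposite strands over 9.40% and 8.0% of their bases; the strand setting is unstated, so reads there cannot be told apart.

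The remaining effectors, 8 genes, all rose in both genotypes. Isg20, an exonuclease that degrades RNA, had 127, 101 and 79.6 CPM in cKO M1, 121, 134 and 132 CPM in WT M1, 7.34, 13.3 and 14.4 CPM in cKO M0 and 9.45, 9.55 and 6.81 CPM in WT M0. Xaf1, which promotes apoptosis, had 203, 200.1 and 190.2 CPM in cKO M1, 237, 241 and 214 CPM in WT M1, 33.0, 51.6 and 50.7 CPM in cKO M0 and 35.1, 42.5 and 33.2 CPM in WT M0. Isg20 rose by log2 fold changes of 3.13 in cKO and 3.90 in WT, and Xaf1 by 2.13 and 2.64. Rtp4, a receptor chaperone, had 391, 318 and 290.1 CPM in cKO M1, 323, 268 and 303 CPM in WT M1, 118, 147 and 163 CPM in cKO M0 and 131, 129.9 and 114 CPM in WT M0. Trim30a, a TRIM family protein of mice, had 620.4, 654 and 639 CPM in cKO M1, 695, 589 and 622 CPM in WT M1, 160.3, 239 and 219 CPM in cKO M0 and 191, 212 and 180.1 CPM in WT M0. Their rises were moderate, 1.22 and 1.25 for Rtp4 and 1.63 and 1.71 for Trim30a in cKO and WT. Samd9l, a restriction factor of poxviruses, had 225, 259.7 and 224 CPM in cKO M1, 230.1, 165 and 211 CPM in WT M1, 127, 171 and 158 CPM in cKO M0 and 148, 159 and 139 CPM in WT M0. It rose by 0.64 in cKO and 0.44 in WT, but with library totals alone it had 0.10 in cKO and, with the sign turned, -0.14 in WT, and neither passed. Ifi44 rose by 3.49 in cKO and 3.88 in WT, Ifi35 by 1.38 and 1.55 and Slfn5, a Schlafen protein, by 1.56 and 1.37. For Ifi35 16.8% and for Slfn5 8.84% of exon bases overlap genes of the opposite strand.

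**Figure D2:**
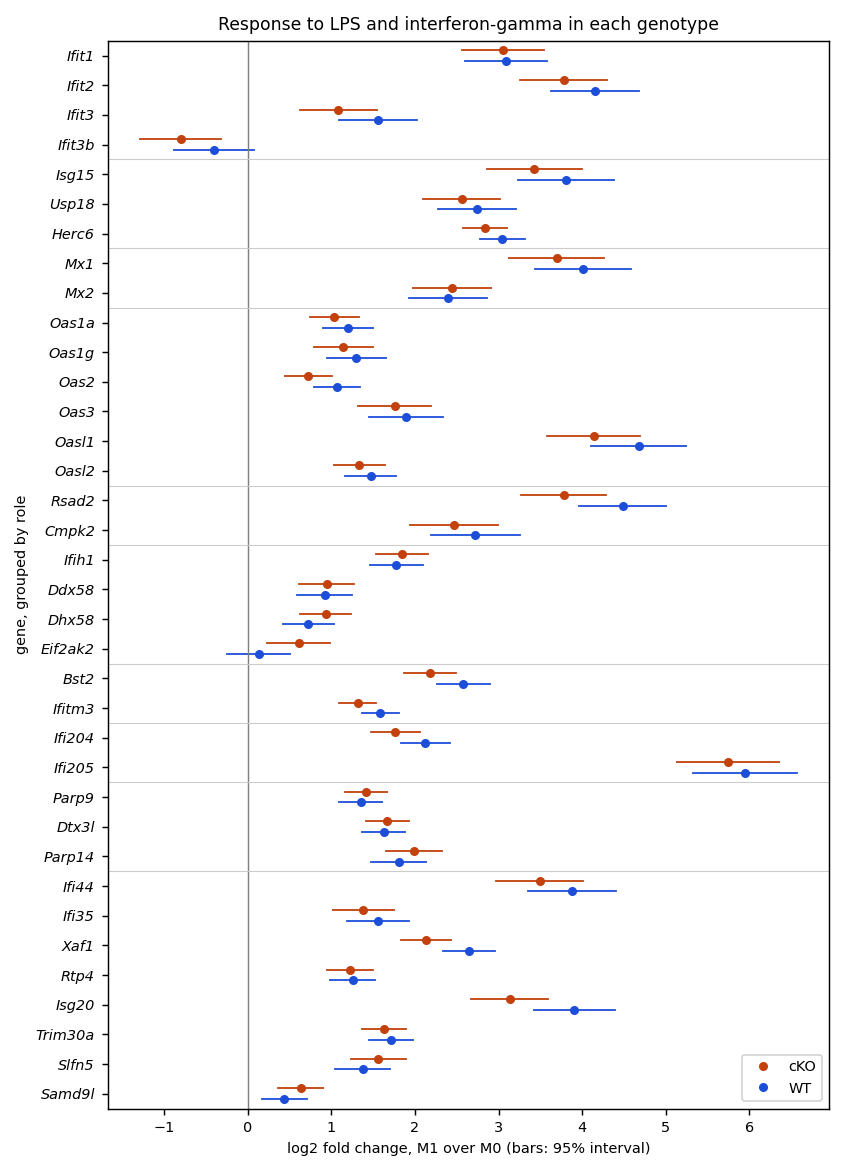
Log2 fold change of M1 over M0 for each of the 36 genes in cKO and in WT, with bars for the 95% interval from edgeR. Ifi205 lies farthest to the right at 5.75 in cKO and 5.94 in WT, and Ifit3b lies left of 0 at -0.80 and -0.40.

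Per length, Ifitm3 led the set in all 4 groups, at 1693 CPM per kb in cKO M1, 1696 in WT M1, 680.4 in cKO M0 and 565 in WT M0. Isg15 and Bst2 came next in M1, at 1097 and 839 CPM per kb in cKO M1 and 1048 and 901 in WT M1. In M0 the order was Ifitm3 and Bst2, then Isg15 in cKO and Ifit3 in WT. Ifi205 was last of the 36 in M0, at 1.03 CPM per kb in cKO and 0.772 in WT. It ranked 25 in cKO M1 and 28 in WT M1. Ifit3b was last in M1, at 7.39 CPM per kb in cKO and 8.20 in WT. The set took 1.80%, 1.81% and 1.69% of all counts in cKO M1, 1.91%, 1.56% and 1.90% in WT M1, 0.434%, 0.697% and 0.637% in cKO M0 and 0.516%, 0.606% and 0.482% in WT M0. The lowest share of each state fell on cKO M0 replicate 1 and WT M1 replicate 11.

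The genotypes were then compared in the stimulated state, where the set as a whole lay close together and 2 genes differed. In M1, Eif2ak2 was higher in cKO, at 169 ± 13.0 CPM, against 109.0 ± 29.8 CPM in WT (SD, n = 3 each; log2 fold change 0.63, SE 0.18, adjusted p = 0.0221, edgeR). Oas2 was lower in cKO, at 158 ± 16.5 CPM, against 220.3 ± 12.4 CPM in WT (log2 fold change -0.48, SE 0.13, adjusted p = 0.018). Oas2 had 141, 160.3 and 174 CPM in cKO M1, 209, 234 and 218 CPM in WT M1, 73.8, 114 and 99.6 CPM in cKO M0 and 98.9, 117 and 99.3 CPM in WT M0. Both genes separated the genotypes in every M1 library. Of all tested genes, 8.98% were higher and 9.67% lower in this comparison, so 1 of 36 each way was no more than the background. Of the 36 genes 20 had a positive value, with a median of 0.05 beside 0.02 over all genes. With 1 library left out the median lay between -0.05, with 14 positive values, without WT M1 replicate 11, and 0.10, with 21 positive values, without WT M1 replicate 12. Both calls depended on WT M1 replicate 11, the library with the lowest Eif2ak2 level: without it Eif2ak2 had 0.40 (adjusted p = 0.0821) and Oas2 -0.45 (adjusted p = 0.0570). Eif2ak2 also did not pass without cKO M1 replicate 8 (adjusted p = 0.0921), nor Oas2 without cKO M1 replicate 7 (adjusted p = 0.0555). Over all alternatives the adjusted p lay between 1.37e-08 and 0.0921 for Eif2ak2 and between 6.73e-06 and 0.0570 for Oas2. Opposite-strand genes overlap 4.32% of the exon bases of Eif2ak2.

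Libraries of the genotypes did not overlap in 6 of the 36 genes in M1, against 33.7% of all genes. Dhx58 was above WT in every cKO library, as was Eif2ak2, and Herc6, Rsad2 and Xaf1 were below it, as was Oas2. Dhx58 had a log2 fold change of 0.36 (SE 0.14, adjusted p = 0.0935, edgeR), Rsad2 of -0.44 (SE 0.21, adjusted p = 0.167) and Xaf1 of -0.22 (SE 0.14, adjusted p = 0.279). Dhx58 passed as higher when counts were scaled by library totals alone, without the filter on low counts, when only the 2 M1 groups were fitted, and without cKO M0 replicate 1. Rsad2 passed as lower under the same alternatives other than library totals alone, and without the filter Ifit2 and Isg20 passed as lower as well. The 95% intervals of the 36 genes reached from -0.89 to 1.01, with a median width of 0.67.

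**Figure D3:**
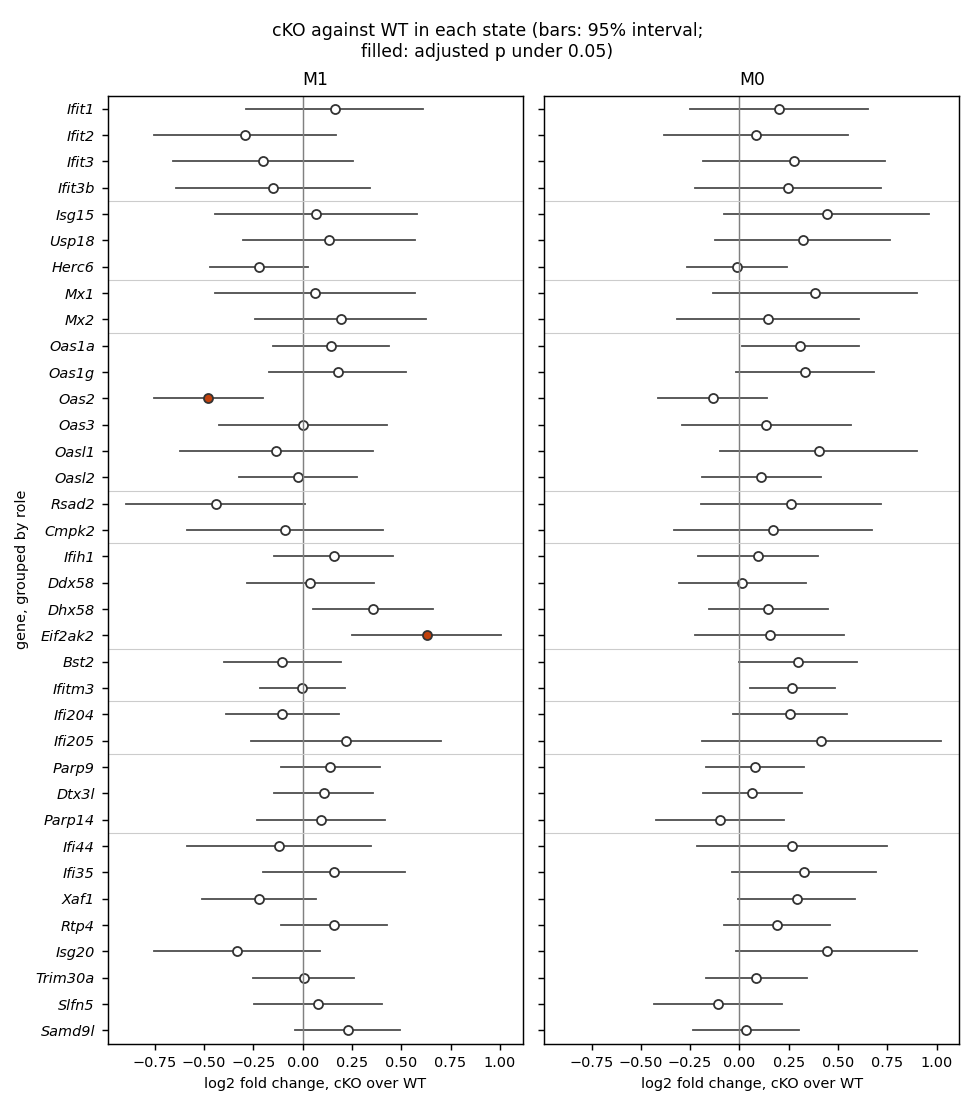
Log2 fold change of cKO over WT for each of the 36 genes in M1 (left) and M0 (right), with bars for the 95% interval; filled points passed at an adjusted p under 0.05. Eif2ak2 at 0.63 and Oas2 at -0.48 are the filled points, both in M1, and in M0 32 of 36 points lie right of 0 without passing.

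**Figure D4:**
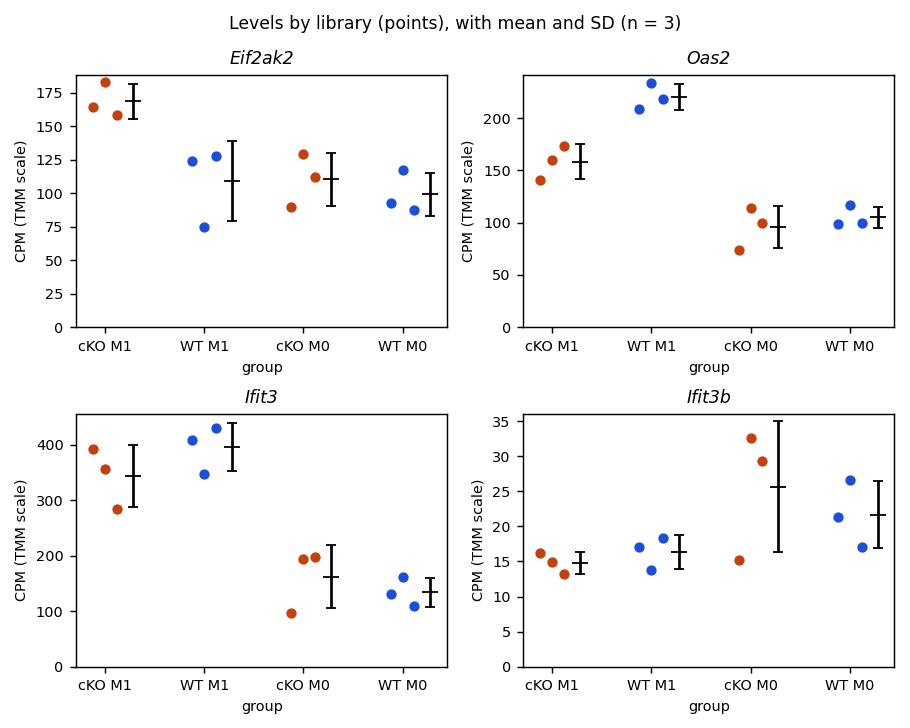
Level of Eif2ak2, Oas2, Ifit3 and Ifit3b in CPM in each library (points), with the mean and SD of the 3 libraries of a group. Eif2ak2 and Oas2 separate the genotypes in M1, Ifit3 is higher in M1 than in M0 in both genotypes, and Ifit3b is not.

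In unstimulated macrophages no gene of the set passed between the genotypes. Of the 36 genes 32 had a positive log2 fold change, with a median of 0.20 beside 0.01 over all genes. By edgeR 0 were higher and 0 lower, against 0.662% and 0.953% of all tested genes, and 2 of the 36 reached an unadjusted p under 0.05, against 18.6% of all tested genes; DESeq2 and limma-voom also called 0. These 2 were Ifitm3, at 461 ± 71.2 CPM in cKO and 383 ± 14.9 CPM in WT (log2 fold change 0.27, SE 0.10, adjusted p = 0.177), and Oas1a, at 139 ± 28.7 CPM in cKO and 112 ± 9.37 CPM in WT (0.31, SE 0.14, adjusted p = 0.25). Isg15 and Isg20 had the highest values, 0.44 (SE 0.24, adjusted p = 0.344) and 0.44 (SE 0.22, adjusted p = 0.286). Libraries of the genotypes overlapped in all 36 genes, while 26.2% of all genes showed no overlap. The count rested on cKO M0 replicate 1: without it 36 of 36 values were positive with a median of 0.43, and 6 genes passed as higher. Under that setting 337 of all 15472 tested genes passed in either direction. The 6 genes were Ifi205 at 0.76, Ifi44 at 0.56, Oas1g at 0.54, Xaf1 at 0.47, Ifi204 at 0.43 and Ifitm3 at 0.39. Their adjusted p lay between 0.0267 and 0.0467 (edgeR). Replicate 1 was the lowest cKO M0 library in 36 of 36 genes, so leaving it out raises the cKO M0 mean of each. The added positive values and calls as higher therefore carry no support of their own. Without replicate 2, 20 values were positive with a median of 0.03, and without replicate 3, 30 were with a median of 0.11. Of the WT M0 libraries, leaving out replicate 5 gave a median of 0.31 and leaving out replicate 6 a median of 0.10. Without the filter on low counts 10 genes passed as higher with all libraries, beside 1182 of all 27501 fitted genes in either direction.

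That library is the main feature of the spread in M0. In cKO M0, replicate 1 was the lowest of the group in 36 of 36 genes, and it was lowest in 38.4% of all tested genes. Replicate 2 was the highest in 27 genes and replicate 3 in 9. Relative to each gene's mean over the 6 M0 libraries, the median of the 36 genes was -0.37, 0.34 and 0.28 on the log2 scale in cKO M0 replicates 1, 2 and 3, and -0.11, 0.16 and -0.25 in WT M0 replicates 4, 5 and 6. Replicate 1 was below all other M0 libraries in 27 genes, and WT M0 replicate 6 in 8. Among the WT M0 libraries, replicate 5 was the highest in 33 genes and replicate 6 the lowest in 30, so the set moved together from library to library in both genotypes.

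**Figure D5:**
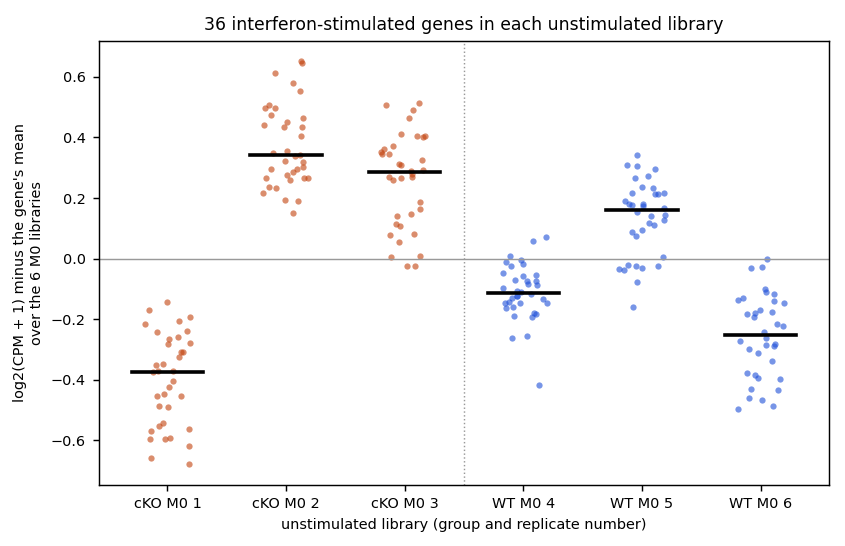
Level of each of the 36 genes (points) in each of the 6 unstimulated libraries, as log2(CPM + 1) minus the gene's mean over the 6 M0 libraries, with a bar at the median. The medians are -0.37, 0.34 and 0.28 in cKO M0 and -0.11, 0.16 and -0.25 in WT M0; all points of cKO M0 replicate 1 lie below 0.

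The SD between libraries of log2(CPM + 1) had a median over the 36 genes of 0.364 in cKO M0 and 0.190 in WT M0, beside 0.106 and 0.0991 over all tested genes. In cKO M0, 1.56% of all tested genes varied more than the median of the set, and in WT M0 13.6% did. These shares depend on the value added to the CPM: with 0.5 in place of 1 they were 3.57% and 21.6%. The stimulated groups did not share this, with medians of 0.135 in cKO M1 and 0.134 in WT M1, beside 0.124 and 0.116 over all genes. The ratio of the highest to the lowest library had a median of 1.63 in cKO M0 and 1.28 in WT M0. In cKO M0 it ran from 1.33 for Ifitm3 to 2.77 for Ifi205, and Ifi44 at 2.55, Mx1 at 2.27, Rsad2 at 2.23 and Mx2 at 2.19 were also high. In WT M0 Oasl1 varied most, at 1.80, and Bst2 least, at 1.08. Genes that responded more to stimulation varied more between M0 libraries. Across the 36 genes Spearman's rho between the log2 fold change and the M0 SD was 0.625 in cKO and 0.52 in WT; these genes share the same 3 libraries and are not independent, and the same M0 libraries enter both measures. In M1, WT replicate 11 was the lowest of its group in 30 genes and cKO replicate 9 in 27.

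Markers of other cells were low in the same M0 libraries. The 6 markers of B and plasma cells summed to between 1.98 and 7.96 CPM in cKO M0 and 4.04 to 6.10 CPM in WT M0. In M1 they summed to less, between 0.284 and 0.424 CPM in cKO and 0.762 to 1.23 CPM in WT. The 2 tested genes of that list were lower in M1 than in M0 in each genotype (edgeR). Of all tested genes 36% were lower in cKO and 37.1% in WT. The B and plasma cell markers did not share an order over the cKO M0 libraries. Jchain, a plasma cell gene, had 5.503, 0.157 and 0.0393 CPM in cKO M0 replicates 1, 2 and 3 and between 1.98 and 4.22 CPM in WT M0. Cd79b, a part of the B cell receptor, had 2.27, 1.75 and 2.44 CPM in cKO M0 replicates 1, 2 and 3, and its partner Cd79a 0.0775, 0.0393 and 0.0983 CPM. Jchain was thus highest in replicate 1, and Cd79a and Cd79b in replicate 3. The 8 neutrophil markers summed to between 1.08 and 2.27 CPM in cKO M0 and 1.08 to 2.99 CPM in WT M0. The 5 stromal markers summed to at most 0.197 CPM in cKO M0 and 4.83 CPM in WT M0. The 5 markers of plasmacytoid dendritic cells other than Bst2 summed to between 0.236 and 0.550 CPM in cKO M0 and 0.469 to 0.531 CPM in WT M0, with Klk1 at 0 in cKO M0. In M1 these 5 markers summed to between 4.33 and 6.04 CPM in cKO and 3.25 to 5.22 CPM in WT. Siglech was at 0 in both, Ly6d was at 0 in cKO M1 and Klk1 in WT M1. By edgeR, of the 3 tested genes of that list with Bst2, 3 were higher in M1 than in M0 in cKO and 2 in WT. Of all tested genes 34.2% were higher in each genotype. Bst2 is also 1 of the 36 genes described here, so its rise is not separate from that of the set. The neutrophil markers summed to between 7.3 and 16.22 CPM in cKO M1 and 6.492 to 11.027 CPM in WT M1. That sum does not stand for its list. Of the 5 tested neutrophil markers, 1 was higher and 2 were lower in M1 than in M0 in each genotype (edgeR). Of all tested genes 34.2% were higher and 36% lower in cKO, and 34.2% and 37.1% in WT. The 5 dendritic cell markers summed to between 1.92 and 2.75 CPM in cKO M1 and 2.34 to 3.55 CPM in WT M1. In M0 they summed to between 0.314 and 0.786 CPM in cKO and 0.459 to 0.689 CPM in WT. The part of these other cells in the levels and the spread of the set was not tested.

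The interaction asked whether stimulation moved the set differently in the genotypes. By edgeR 0 of 36 genes passed, against 8.16% of all tested genes, and DESeq2 and limma-voom also called 0. Of the 36 values 10 were positive, with a median of -0.18 beside 0.00 over all genes, and 3 of the 36 reached an unadjusted p under 0.05, against 23.9% of all tested genes. These were Isg20 at -0.77 (SE 0.29, adjusted p = 0.118), Rsad2 at -0.70 (SE 0.30, adjusted p = 0.169) and Xaf1 at -0.51 (SE 0.19, adjusted p = 0.119), values below 0 standing for a smaller rise in cKO. Eif2ak2, at 0.48 (SE 0.25, adjusted p = 0.265), had the highest value. The median moved with single libraries: it was -0.37 with 5 positive values without cKO M0 replicate 1, -0.06 with 15 without replicate 2, -0.08 with 13 without replicate 3, -0.10 with 12 without WT M0 replicate 6 and -0.28 with 10 without cKO M1 replicate 7. Without cKO M0 replicate 1, 7 genes passed with a smaller rise in cKO: Isg20 at -1.02, Rsad2 at -0.98, Ifit3 at -0.75, Xaf1 at -0.70, Ifi44 at -0.68, Bst2 at -0.57 and Ifi204 at -0.53. Under that setting 893 of all 15472 tested genes passed in either direction. Leaving out the lowest cKO M0 library makes the cKO rise smaller by construction, so these calls carry no support of their own. Without cKO M1 replicate 7, Isg20 alone passed, and without the filter on low counts 10 genes passed with a smaller rise and Eif2ak2 with a larger one. Of all genes, 1399 of 15509 passed without cKO M1 replicate 7 and 1972 of 27501 without the filter.

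The pathway that drives the set was followed through 40 genes for ligands, receptors, kinases, factors, inhibitors and sensors, of which 30 could be tested. Interferon ligands were barely detected. Ifnb1, the gene of interferon-beta, had 20, 20 and 14 counts in cKO M1, 5, 24 and 17 counts in WT M1, 0, 1 and 0 counts in cKO M0 and 0, 0 and 2 counts in WT M0. The other 10 ligand genes together had at most 6 counts in any library. The labels do not say how long after stimulation the cells were harvested.

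On stimulation 25 of the 30 pathway genes rose in cKO and 22 in WT, and 2 and 4 fell. Of all tested genes 34.2% rose in each genotype, and 5441 of the 15110 fell in cKO and 5612 in WT. In both genotypes 3 of 4 receptors and all 6 kinase and ISGF3 genes rose. Ifnar2 rose by log2 fold changes of 0.84 in cKO and 0.77 in WT, Stat2 by 1.90 and 2.02 and Irf9 by 0.51 and 0.73. The size of these rises depends on the scaling, and small ones most. Before scaling, Irf9 had 4281, 4469 and 4685 counts in cKO M1 and 4201, 4806 and 4677 counts in cKO M0. In WT it had 4576, 4925 and 4866 counts in M1 and 4390, 4204 and 4384 counts in M0. Irf7, which amplifies interferon production, had 3676, 3294 and 2714 CPM in cKO M1, 3405, 3799.7 and 3679 CPM in WT M1, 189, 403 and 380.5 CPM in cKO M0 and 239.5, 276 and 212 CPM in WT M0. In M0 it followed the 36 genes, lowest in cKO replicate 1, as did Zbp1, a nucleic acid sensor, at 43.4, 88.8 and 84.6 CPM in cKO M0 and 55.4, 67.4 and 48.0 CPM in WT M0. Replicate 1 of cKO M0 was the lowest of its group in 23 of the 30 pathway genes, beside 38.4% of all tested genes. The pathway genes as a whole did not follow the set in WT M0. There replicate 6 was the lowest in 6 of the 30 and the highest in 14, and replicate 5 was the lowest in 12 and the highest in 11.

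Between the genotypes in M1, 8 of the 30 pathway genes were higher in cKO and 1 was lower, beside 8.98% higher and 9.67% lower of all tested genes. In M0 0 of the 30 passed by edgeR, and 5 had an unadjusted p under 0.05, beside 18.6% of all tested genes. Of the higher genes 3 are inhibitors of interferon signalling. Socs1, which blocks JAK kinases, had 316, 323 and 249 CPM in cKO M1, 126, 83.9 and 166 CPM in WT M1, 2.17, 3.44 and 4.09 CPM in cKO M0 and 2.88, 3.34 and 2.28 CPM in WT M0. All cKO M1 libraries were above all WT M1 libraries (log2 fold change 1.24, SE 0.21, adjusted p = 0.000927, edgeR). Socs3 was higher by 0.35 (adjusted p = 0.00756) and Ptpn6, the phosphatase SHP-1, by 0.44 (adjusted p = 0.00303). Irf3, the factor that induces Ifnb1, was higher by 0.52, Sting1, the adaptor of DNA sensing, by 0.43, Ikbke, a kinase of IRF3, by 0.41, Tlr4 by 0.32 and Ifngr1 by 0.28. Jak1 was lower by a log2 fold change of -0.42 (SE 0.08, adjusted p = 0.00313). Beside these changes in the pathway, the ISGF3 genes Stat2 and Irf9 had values of -0.05 and -0.16 in M1, and neither passed.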

How the data were processed

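RNA sequencing counts of 12 libraries in 4 groups of 3 were used, grouped by the sample labels. The authors deposited unnormalized read counts and a length in bases for each gene. Per the submitters' processing notes, the genome build was GRCm39 and the tools were featureCounts 2.0.3, HISAT2 2.2.1, Trimmomatic 0.39 and SAMtools 1.16.1; the sources used here do not give the strand option, the handling of multiple matches or the annotation release. Of the values from 1 to 10, 60.9% were even, as read pairs counted by mate would leave, so halved counts were an alternative. Gene symbols came from a name table that matched 52073 of 56980 IDs.

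The tests used edgeR 4.0.16 with limma 3.58.1 under R 4.3.3: filterByExpr (minimum count 10, minimum total 15), TMM factors (mean 0.840 in cKO M1, 0.808 in WT M1, 1.22 in cKO M0 and 1.21 in WT M0), 1 mean per group over all 12 libraries, quasi-likelihood F-tests and Benjamini-Hochberg adjustment over 15110 genes. The threshold was an adjusted p below 0.05; the standard error is the fold change over the root of F, and intervals are 95%. The steps were tested on simulated data. CPM are on the TMM scale, and CPM per kb divide by the deposited length. Spread is the SD of log2(CPM + 1). Motifs were searched in RefSeq promoters, and shared sequence and exon overlap come from GENCODE M21, of another build than the counts.

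The 36 genes and the lists were chosen with earlier results of these data known, so counts and medians over them carry no test. Values per library are given for the 2 genes of each role with the highest CPM per kb, those that passed between genotypes, those that did not rise on stimulation and up to 2 per role with the smallest p between genotypes in each state; the rest are given by fold change. Irf7, Zbp1, Jchain, Cd79a, Cd79b and Siglech were singled out after their values were seen. Alternatives were other scalings, no filter, DESeq2 1.42.0, limma-voom, halved counts, fits of 2 groups alone and each library left out. For the spread, the alternative was to add 0.5 in place of 1 to the CPM.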

Additional observations from a re-analysis of the deposited data

Results flagged for a closer look

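The genotype effect differed between the states, by edgeR's interaction test, in 5 of the 30 tested pathway genes and in the targeted gene, beside 8.16% of all tested genes. The values below are the log2 effect of cKO in M1 minus that in M0. Zc3h12c, the gene of Regnase-3, had -0.61 (SE 0.17, adjusted p = 0.0369). Socs3 had 0.67 (SE 0.13, adjusted p = 0.00591), Ikbke 0.62 (SE 0.13, adjusted p = 0.00943), Irf3 0.59 (SE 0.15, adjusted p = 0.0277), Ptpn6 0.47 (SE 0.12, adjusted p = 0.0294) and Sting1 0.39 (SE 0.11, adjusted p = 0.0374). None of the 36 interferon-stimulated genes passed that test in edgeR, while 3 of them had an unadjusted p under 0.05, beside 23.9% of all tested genes, and 0 passed in DESeq2 or limma-voom.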

How the results depend on the processing

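No paired analysis was possible because replicate numbers run from 1 to 12 and no number is shared between groups. No call between the genotypes changed sign under any alternative; of the calls of M1 against M0, Samd9l in WT did, to -0.14 (adjusted p = 0.321) with library totals alone. In cKO against WT in M0, where 0 genes passed as higher, 10 did without the filter on low counts and 0 to 6 with 1 library left out. In M1, where 1 was higher and 1 lower, 2 were higher with library totals alone, 2 higher and 4 lower without the filter, 2 higher and 2 lower with the 2 M1 groups alone, and 0 to 2 in each direction with 1 library left out. In M1 against M0 in WT, where 0 were lower, 2 were with library totals alone, 1 without the filter, 1 with the 2 groups alone and 0 to 1 with 1 library left out. In the interaction, 1 was higher and 10 lower without the filter, and 0 to 7 lower with 1 library left out. Without the filter 27501 genes were fitted, and the cause of the added calls was not tested. Of these 27501, 1182 passed between the genotypes in M0, 3116 in M1 and 1972 in the interaction. The longer ISRE was in 7 genes in place of 12. The other 171 recomputed values, counts of passing genes and medians of the spread, stayed close to the main value. Each of these counts was equal to the main value or within 1.5 times of it. The medians of the spread, with 0.5 in place of 1 added to the CPM, moved by less than the SD over the 36 genes of their single spreads. The median log2 fold changes of the set moved more: with 1 library left out they lay between 0.03 and 0.43 for cKO against WT in M0 (20 to 36 positive values), -0.05 and 0.10 in M1 (14 to 21) and -0.37 and -0.06 for the interaction (5 to 15). With 3 libraries a group the 95% intervals of single genes had a median width of 0.67 on the log2 scale between genotypes in M1 and 0.67 in M0.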
